A study of Mus musculus with 1 sample.

Results

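The Sox genes encode transcription factors, and 10 of them were followed across the cell classes of the newborn mouse cerebral cortex: Sox1, Sox2, Sox3, Sox21, Sox4, Sox11, Sox6, Sox8, Sox9 and Sox10. Members were the rows of the unique molecular identifier (UMI) table that carry these symbols, and all 10 were among the 51912 genes listed. The tissue was the cerebral cortex of wild-type (WT) C57BL/6 mice at postnatal day 0, digested with papain and captured cell by cell in a droplet protocol that reads the 3′ ends of transcripts. The sample title names telencephalic tissue, while the methods name the cerebral cortex. The methods name C57BL/6 for the Nestin-Cre mice but another stock for breeding the knock-in founders, so a pure background is not certain. The series sets this library beside a SERPINA3 conditional knock-in, which was not analysed here. There was 1 WT library, how many animals it pooled is not given in the sources used here, and no test between conditions was possible.

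Sox proteins bind DNA through a high mobility group box, bend it, and usually act with a partner factor at a nearby site. They fall into subgroups by the sequence of that box. SoxB1 genes (Sox1, Sox2, Sox3) are known for holding neural progenitors in an undifferentiated state and Sox21, of the SoxB2 subgroup, for opposing them. SoxC genes (Sox4, Sox11) are known for turning on neuronal genes in newborn neurons. SoxE genes (Sox8, Sox9, Sox10) are known for glial specification, and Sox6, a SoxD gene without an activation domain of its own, for the timing of oligodendrocyte and interneuron development.

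The library held 11062 cells with distinct barcodes and 90346034 UMIs, with a median of 7196 UMIs per cell. Cells were sorted into 23 classes by UMIs of 106 lineage markers, of which 105 were listed, and no Sox gene was a marker. A class held 8689 cells (78.55%). A further 1951 cells met no gate and had a median of 994 UMIs, and 418 cells met gates of unlike lineages and were left out as possible doublets. These 418 cells held 963 Sox2 UMIs, about as many as the 959 of the radial glia or astrocytes, so the gates kept only part of each gene's signal. Class names rest on the gates alone. The leading genes of 20 classes included 2 or more markers of the gates, for example Pdgfra, Olig1 and Olig2 in oligodendrocyte precursor-like cells (OPC) and Sst, Nxph1, Maf and Lhx6 in medial interneurons. Cells were chosen by such markers, and markers of any gate were counted, so this is no check on the names. Olig1- and Olig2-positive cells without Pdgfra were led by Hes5, Mfge8, Egfr and Top2a, so they are called only by their gate. Gate markers were absent from the 10 leading genes of the other 3 classes (layer II/III without Igfbpl1, layer II/III with few Igfbpl1 UMIs, and unresolved excitatory neurons).

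Levels are counts per 1000000 (CPM), the UMIs of a gene summed over a class divided by the UMIs of all genes other than mitochondrial ones. Brackets hold exact 95% intervals, which cover counting error only, since there are no replicates. Those of levels and ratios treat UMIs as independent and leave out spread between the cells of a class. Overlap of separate intervals is not a test of the difference between their values. Shares of cells were computed after each cell had been thinned to 2000 UMIs, and shallower cells were left out of them. This kept 225 of 243 radial glia or astrocytes, 37 of 50 dividing progenitors, 113 of 119 OPC, 187 of 188 newborn excitatory neurons, 159 of 174 medial and 109 of 129 caudal interneurons and 6751 of 7351 excitatory-layer cells. Excitatory layers means 7351 cells, all excitatory neurons other than newborn ones. As 3′ counts do not scale with transcript length, levels of different genes may be set side by side, apart from differences in how well each 3′ end is captured. Fewer transcripts in every cell and fewer transcribing cells cannot be told apart in the summed CPM, so shares of cells are given beside it.

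**Figure D1:**
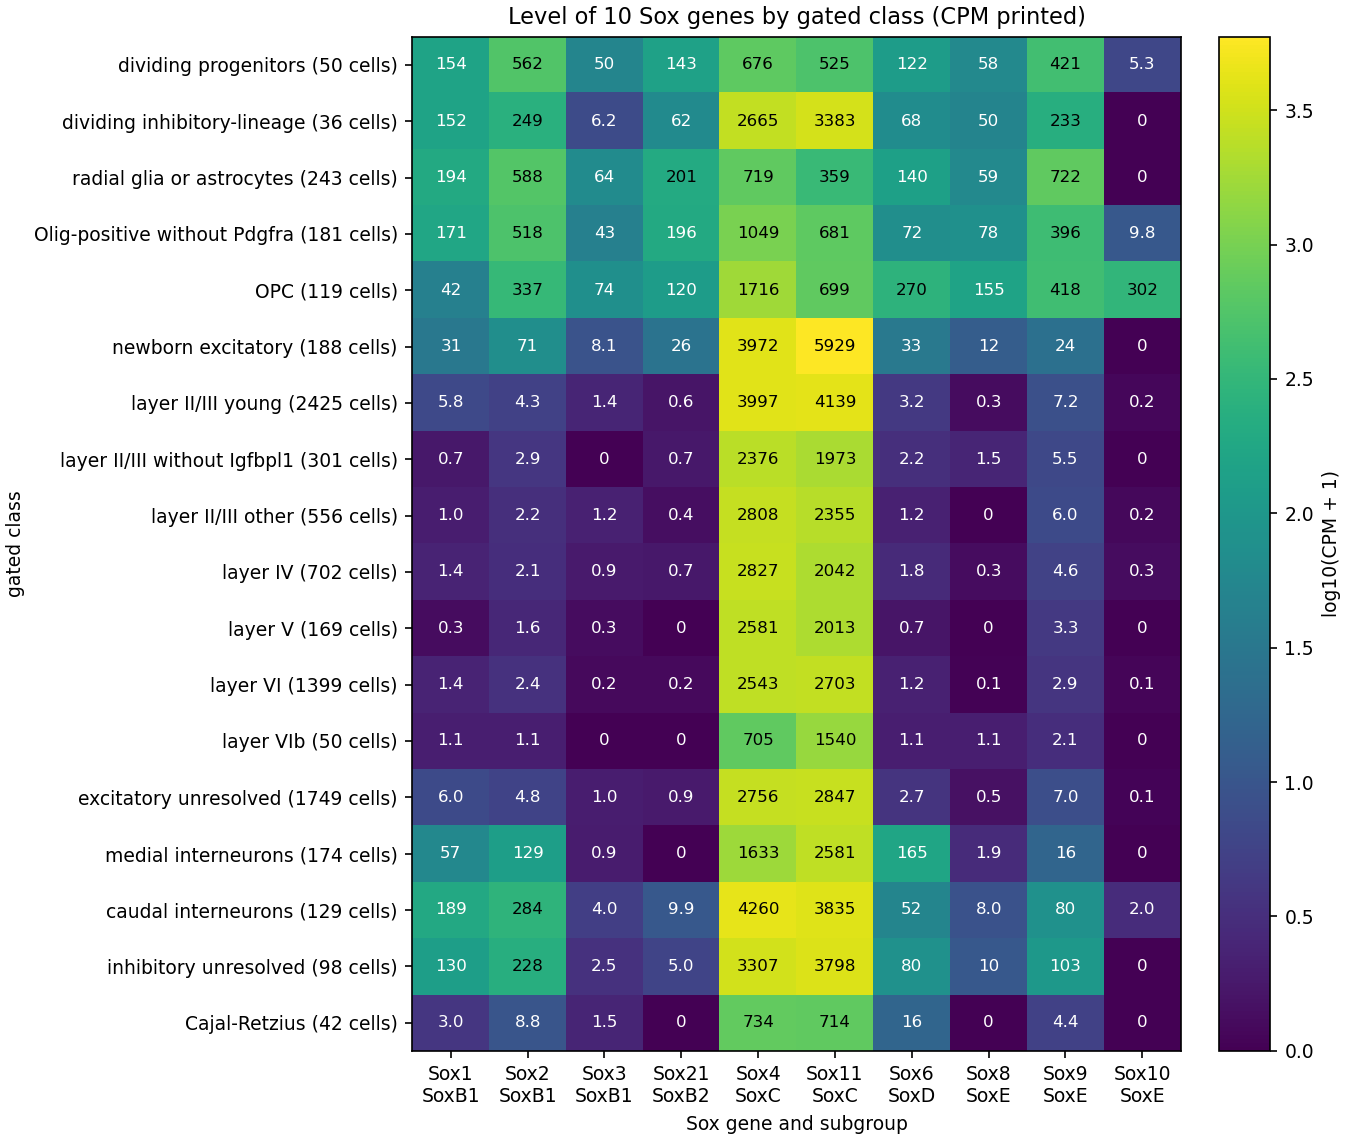
Level of each Sox gene (columns, with the subgroup) in the 18 gated classes of at least 30 cells (rows, with the number of cells). Colour is log10(CPM + 1) and the printed number is the CPM: 8 genes are highest in progenitors and glia and low in excitatory layers, where Sox4 and Sox11 reach 2999 and 2925 CPM.

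Setting radial glia or astrocytes (243 cells gated by Slc1a3, Aldoc, Hes5 and similar markers) beside the excitatory layers showed opposite levels within the family. Of 9 members with at least 10 CPM in either class, 7 were at least 2-fold higher in the glia (Sox1, Sox2, Sox3, Sox21, Sox6, Sox8 and Sox9) and the other 2, Sox4 and Sox11, were at least 2-fold lower. Over all 10577 genes compared, 19.8% were higher and 16.9% lower by this measure. The 7 higher members lay at 0.303 to 5.36 CPM in excitatory layers and passed the minimum of 10 CPM only through the glia, so they could not have been counted as lower, and nothing is read from their count. Sox10 had too few UMIs in both classes to be compared. Dividing progenitors (50 cells with markers of mitosis) gave the same counts, with the 7 members again passing the minimum only through the progenitors, beside 23.5% of all genes higher and 17.3% lower. This class took the dividing cells left after Olig-positive, Eomes-positive and inhibitory-lineage ones, and its gate asked for no progenitor or neural marker. It was led by genes of the cell cycle, such as Cenpf, Top2a and Mki67, so its name does not establish the lineage of each cell. Of 20 partner and target genes chosen beside the family, 16 could be compared between glia and excitatory layers. Of these, 9 were higher, among them Pax6, Nes, Vim, Fabp7, Hes1 and Notch1, and 4 were lower (Mbp, Dcx, Tubb3 and Stmn1). Partner genes under 10 CPM in a class, such as Pax6, Vim and Notch1 in excitatory layers, passed only through the other class, and nothing is read from the partner counts in any comparison.

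Sox2 was the most abundant SoxB1 gene in progenitors, glia and interneurons. It stood at 588 CPM (551 to 626) in radial glia or astrocytes, 562 (489 to 643) in dividing progenitors and 518 (483 to 556) in Olig-positive cells without Pdgfra. OPC held 337 CPM (300 to 379). Newborn excitatory neurons, gated by Eomes with Neurog2, Neurod1 and similar genes, held 71.1 CPM (58.7 to 85.5), and the excitatory layers 3.26 CPM (2.85 to 3.71). So Sox2 was lower in the newborn class than in dividing progenitors and lower again in the layers. The newborn class was led by Eomes and Neurog2. Its gate left out dividing cells but did not separate non-dividing intermediate progenitors from neurons. The 3 highest classes were close, and the ratio of radial glia or astrocytes to dividing progenitors was 1.05 (0.901 to 1.22). In radial glia or astrocytes a cell held a median of 4 Sox2 UMIs (quartiles 2 and 6), and 69.8% of cells (63.3 to 75.7) had a UMI at 2000 UMIs per cell. In excitatory layers, which should lack the gene, that share was 0.637% (0.461 to 0.857). Without thinning the shares were 92.2% and 2.65%. Of dividing progenitors, 59.5% (42.1 to 75.25) held Sox2 at 2000 UMIs and 72% without thinning, with a lower quartile of 0 UMIs. At 2000 UMIs, neither Sox2 nor Sox9 was found in 18.9% of dividing progenitors, against 8% of radial glia or astrocytes. Without thinning these shares were 22% of 50 cells and 4.53%, a wider gap. The ratio of radial glia or astrocytes to excitatory layers was 180.5 (156 to 210), and 112 when every cell was weighted equally.

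Sox1 was lower than Sox2 in progenitors and glia and close to it in excitatory layers. Radial glia or astrocytes held 194 CPM (173 to 216), dividing progenitors 154 (117 to 199) and excitatory layers 3.30 (2.89 to 3.76). Over the 18 classes, which share a library, the log2 levels of Sox1 and Sox2 had a Pearson r of 0.97, the highest between any members. The balance of the pair still differed between classes. In OPC, Sox1 stood at 42.3 CPM (29.6 to 58.6), 0.218 times the radial glia level (0.150 to 0.309), against 0.574 times (0.501 to 0.655) for Sox2. In caudal interneurons it was Sox2 that was lower, with radial glia or astrocytes 2.07-fold above them for Sox2 (1.73 to 2.48) and 1.02-fold for Sox1 (0.813 to 1.30). The ratio of dividing progenitors to excitatory layers was 46.6 (34.3 to 62.4) for Sox1, and 25.6 with cells weighted equally.

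Because Sox1 and Sox2 moved together, the 250 bases before their transcription starts are shown (RefSeq, GRCm38.p6, both on the plus strand). Sox1 lies at chr8:12395269-12395518 and Sox2 at chr3:34649745-34649994. Capitals mark matches, on either strand, to the CCAAT box (CCAAT or ATTGG), the octamer core bound by POU factors (ATGCAAA or TTTGCAT), the Sox core (ACAAAG or CTTTGT) and the TATA box (TATAAA or TTTATA).
Sox1: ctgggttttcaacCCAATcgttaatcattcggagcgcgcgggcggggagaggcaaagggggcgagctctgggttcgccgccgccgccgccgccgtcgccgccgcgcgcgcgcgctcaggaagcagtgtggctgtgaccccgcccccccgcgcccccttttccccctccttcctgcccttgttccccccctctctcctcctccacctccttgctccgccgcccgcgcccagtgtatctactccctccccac
Sox2: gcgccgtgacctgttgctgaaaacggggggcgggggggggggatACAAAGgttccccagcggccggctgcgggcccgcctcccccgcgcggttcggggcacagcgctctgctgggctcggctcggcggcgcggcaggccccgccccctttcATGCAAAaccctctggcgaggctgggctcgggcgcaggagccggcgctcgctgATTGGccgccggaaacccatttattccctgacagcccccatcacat
The Sox2 window held the octamer core 99 bases before the start, the Sox core at 206 and a CCAAT box at 46. The Sox1 window held a CCAAT box at 237 bases before the start and no match to the other 3 motifs. Of 32851 promoter windows of this length, 33.85% held a CCAAT box, 4.125% the octamer core, 16.46% the Sox core and 12.37% the TATA box. Both windows were rich in G and C, at 71.2% for Sox1 and 72% for Sox2, against a median of 52.4%. A match is a run of letters, not a measured binding site.

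Sox3, the X-linked SoxB1 gene, was the rarest of the subgroup in radial glia or astrocytes. It stood at 64.4 CPM (52.7 to 77.9) in radial glia or astrocytes and 0.850 (0.648 to 1.10) in excitatory layers, a ratio of 75.7 (54.5 to 106). OPC, where Sox1 was low, held 74.1 CPM of Sox3 (56.9 to 94.8), and the ratio of OPC to radial glia or astrocytes was 1.15 (0.828 to 1.59). In interneurons Sox3 was barely counted, with 1 UMI in 174 medial and 2 UMIs in 129 caudal cells.

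Sox21 fell from 201 CPM (180 to 224) in radial glia or astrocytes to 0.548 (0.388 to 0.752) in excitatory layers. This ratio of 367 (262 to 528) was the highest of the members compared, and its interval overlapped only that of Sox8, at 194 (120 to 328). At 2000 UMIs per cell the ratio was 229 (128 to 445), and with cells weighted equally it was 249. Newborn excitatory neurons held 26.2 CPM (18.9 to 35.4). Medial interneurons held 0 Sox21 UMIs in 174 cells, which allows up to 2.82 CPM. Over the 18 classes its pattern was nearest to that of Notch1 (r = 0.99), the receptor that keeps progenitors from differentiating. Notch1 stood at 421 CPM in radial glia or astrocytes and 2.29 in excitatory layers. Sox21 overlaps the noncoding gene Gm4675 on the opposite strand in GENCODE M21, and the strand setting of the counting is not given.

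Any SoxB1 gene was found in 80.9% of radial glia or astrocytes (75.1 to 85.8) at 2000 UMIs, in 56.6% of OPC (47.0 to 65.9), in 57.8% of caudal interneurons (48.0 to 67.2) and in 1.64% of excitatory-layer cells (1.35 to 1.98). Without thinning these shares were 94.7%, 88.2%, 72.1% and 5.85%. Sox2 supplied most of these UMIs in radial glia (69.5%) and OPC (74.4%). Sox3 supplied 16.3% in OPC and 0.833% in caudal interneurons.

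The SoxE genes divided the glia. Sox9, which starts gliogenesis, was highest in radial glia or astrocytes at 722 CPM (681 to 764), with a median of 4 UMIs per cell (quartiles 2 and 7). Dividing progenitors (421 CPM, 358 to 492), OPC (418, 376 to 464) and Olig-positive cells without Pdgfra (396, 365 to 429) came next, and the interval of the ratio between neighbours in this order included 1. Excitatory layers held 5.36 CPM (4.83 to 5.94). The ratio of radial glia or astrocytes to excitatory layers was 135 (120 to 152), and 69.8% of the glia held Sox2 while 72.0% held Sox9 at 2000 UMIs (90.1% held Sox9 without thinning). Both were found together in 49.8% of the glia. Sox2 was found in 69.1% of glia with Sox9 (61.4 to 76.2) and in 71.4% of glia without it (58.7 to 82.1), and these intervals overlap. Without thinning the shares were 96.4% (92.9 to 98.4) and 54.2% (32.8 to 74.5), whose intervals do not overlap, and the part of depth in that difference was not tested.

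Sox10, the SoxE gene of the oligodendrocyte lineage, was found mainly in OPC. It had 257 UMIs in 119 OPC, or 302 CPM (266 to 341), and a median of 2 UMIs per cell. Radial glia or astrocytes and newborn excitatory neurons had 0 UMIs in 243 and 188 cells, which allows up to 1.84 and 1.87 CPM. Against this limit of 3 counts, OPC were at least 164-fold above radial glia or astrocytes, and the exact interval of the ratio, which also covers the counting error in OPC, began at 133. When each cell was thinned to 2000 UMIs the bound became at least 47.4-fold, since fewer UMIs were then counted. Olig-positive cells without Pdgfra, which share Olig1 and Olig2 with OPC, held 15 Sox10 UMIs in 7 of 181 cells, or 9.82 CPM (5.495 to 16.2), and OPC were 30.8-fold higher (18.3 to 55.8). Other gated classes of at least 30 cells were at or below 5.30 CPM, a value that rests on 2 UMIs in dividing progenitors. The 418 cells of mixed gates held 65 further Sox10 UMIs. The gene nearest in pattern that has a textbook role in this lineage was Gpr17 (r = 0.97), a receptor of committed precursors, at 62.3 CPM in OPC and 0 UMIs in radial glia or astrocytes.

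Sox8, the third SoxE gene, was also highest in OPC but was shared more widely. OPC held 155 CPM (130 to 184), Olig-positive cells without Pdgfra 77.9 (64.5 to 93.2) and radial glia or astrocytes 58.9 (47.7 to 71.9). The ratio of OPC to radial glia or astrocytes was 2.64 (2.01 to 3.47). It overlaps 2810468N07Rik, on the opposite strand, in GENCODE M21, a gene that stood at 87.0 CPM in OPC and 12.3 CPM in radial glia or astrocytes.

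The make-up of the SoxE UMIs differed between these classes although their totals were close. Radial glia or astrocytes held 780.5 CPM of SoxE (738 to 825) and OPC 876 (814 to 941). Sox9 made up 92.5% of these UMIs in radial glia or astrocytes. In OPC, Sox9 made up 47.8%, Sox10 34.5% and Sox8 17.7%. Within OPC at 2000 UMIs per cell, Sox9 was found in 42.9% of cells with Sox10 (28.8 to 57.8) and in 50.0% of cells without it (37.2 to 62.8), and these intervals overlap, as they do without thinning (78.7% and 73.3%).

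**Figure D2:**
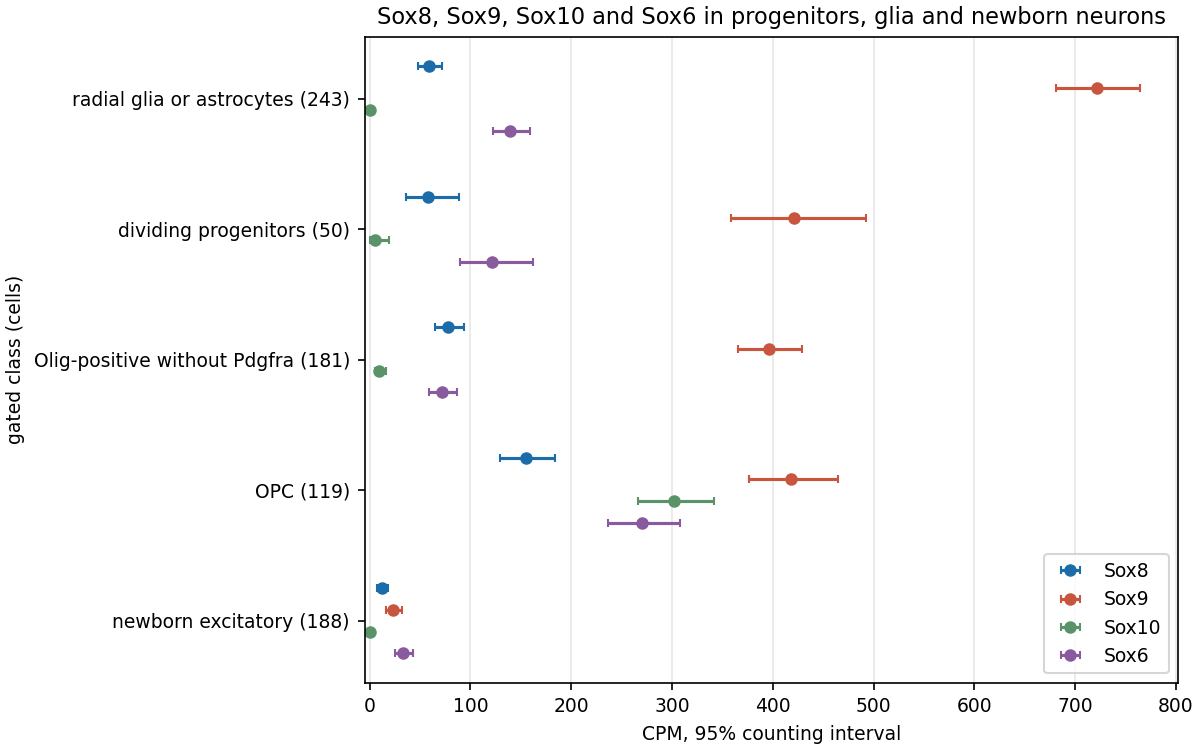
CPM of Sox8, Sox9, Sox10 and Sox6 (points, with 95% counting intervals) in 5 gated classes; the number of cells is in brackets. Sox10 reaches 302 CPM in OPC and at most 9.82 CPM in the other 4 classes, where Sox9 is the highest of these genes except in newborn excitatory neurons.

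Sox6, the SoxD gene, was highest in OPC at 270 CPM (237 to 308). Medial interneurons followed at 165 (141 to 191) and radial glia or astrocytes at 140 (122 to 159), and the interval of their ratio, 0.962 to 1.44, included 1. OPC were 3.76-fold above Olig-positive cells without Pdgfra (2.98 to 4.76), whose level was 72.0 CPM (59.2 to 86.8). Within OPC at 2000 UMIs per cell, Sox6 was found in 59.2% of cells with Sox10 (44.2 to 73.0) and in 34.4% of cells without it (23.0 to 47.3). The shares without thinning were 83.2% (73.7 to 90.3) and 56.7% (37.4 to 74.5). Sox6 was thus found more often with Sox10 at both depths. The intervals overlap slightly at each depth, which does not measure the difference, and the difference was not tested.

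Between OPC and radial glia or astrocytes, 3 of the 10 members were at least 2-fold higher (Sox4, Sox8 and Sox10) and 1 was lower (Sox1), beside 10.5% and 11.2% of all genes. Sox6 was 1.93-fold higher (1.60 to 2.33) and Sox11 1.95-fold (1.73 to 2.19), both just inside the 2-fold limit. Of 19 partner genes compared, 4 were higher in OPC (Dcx, and Mbp, Cspg4 and Gpr17, which passed the minimum only through OPC) and 7 were lower, among them Pax6, Vim, Fabp7 and Hes1. Cspg4, which encodes the NG2 proteoglycan of OPC, stood at 299 CPM in OPC and 6.13 CPM in radial glia or astrocytes. For Sox2, Sox3, Sox9 and Sox21 the level in OPC was within 2-fold of that gene's own level in radial glia or astrocytes. Sox10 passed the minimum only through OPC.

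Of the 119 OPC, 17 (14.3%) met the gate for dividing cells. In these, Sox10 stood at 189 CPM against 328 in the other 102, a ratio of 0.576 (0.380 to 0.846). Sox6 was lower as well, at 120 CPM against 305 (0.393, 0.232 to 0.629). Sox1 moved the other way, at 113.5 CPM against 26.0 (4.36, 2.14 to 8.89), and so did Sox9, at 592.5 CPM against 379 (1.56, 1.22 to 1.99). Sox11 and Sox2 were also higher in dividing OPC, by 1.54 times (1.27 to 1.85) and 1.36 times (1.02 to 1.79). For Sox4 the ratio was 0.999 (0.872 to 1.14). These values rest on 17 cells, and Sox1 on 18 UMIs in each set, and the intervals leave out spread between those cells.

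Among Olig-positive cells without Pdgfra, 66 of 181 were dividing. Sox9 was lower in the dividing ones, at 326 CPM against 458 (0.712, 0.602 to 0.841), the opposite of the order in OPC, and Sox4 was slightly lower (0.870, 0.787 to 0.961). Sox10 had 1 UMI in the dividing and 14 UMIs in the other cells. For Sox1, Sox2, Sox3, Sox21, Sox6, Sox8 and Sox11 the interval of the ratio included 1.

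Interneurons carried Sox1 and Sox2 well above the level of excitatory layers. Caudal interneurons (129 cells gated by Adarb2, Prox1, Sp8 and similar markers) held 284 CPM of Sox2 (240 to 335), 87.3-fold above excitatory layers (70.3 to 108), or 53.2-fold with cells weighted equally. Their Sox1 level of 189 CPM (153 to 231) was close to that of radial glia or astrocytes, with a ratio of the glia to these interneurons of 1.02 (0.813 to 1.30). At 2000 UMIs, 38.5% of caudal interneurons (29.4 to 48.3) held Sox2 and 33.0% (24.3 to 42.7) held Sox1, and 56.6% and 46.5% did without thinning. Cells that met a glial gate as well had been left out, so the glial markers of the gates are low in interneurons by construction, and the part of glial RNA in these levels was not tested. Sox2 lies inside Sox2ot, a noncoding gene on the same strand, which was among the leading genes of caudal interneurons at 646 CPM (578 to 721), against 125 (109 to 143) in radial glia or astrocytes. Sox1 lies inside Sox1ot, on the same strand as well, and Sox6 overlaps Gm45025 and Sox6os on the opposite strand. Reads of genes on the same strand cannot be told apart where their exons overlap. For opposite strands this depends on the strand setting, which is not given. Whole gene spans were compared and exons were not, so the Sox1, Sox2 and Sox6 levels carry this uncertainty.

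Of 6 members that could be compared, 4 were at least 2-fold higher in caudal interneurons than in excitatory layers (Sox1, Sox2, Sox6 and Sox9), beside 6.86% of all genes, and 0 were lower, beside 9.26%. These 4 also passed the minimum only through the class where they were high, so nothing is read from their count. Sox9 stood at 79.6 CPM (56.8 to 108) in caudal interneurons and at 16.0 CPM (9.33 to 25.6) in medial ones. Sox21 and Sox8 did not reach 10 CPM, and Sox10 had 1 UMI. Of 15 partner genes, 7 were higher in caudal interneurons, among them Pax6, Vim and Nfib, and Pou3f2 was lower.

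Medial interneurons (174 cells gated by Lhx6, Sst, Maf and similar markers) showed the reverse order for Sox6. They held 165 CPM of Sox6 against 51.7 (33.8 to 75.8) in caudal interneurons, a ratio of 3.19 (2.10 to 5.01), and 5.23 (2.37 to 13.6) at 2000 UMIs per cell. The classes differed in depth, with median totals of 5752 UMIs in medial and 4172 UMIs in caudal cells. Sox6 was found in 27.0% of medial (20.3 to 34.7) and 5.505% of caudal cells (2.05 to 11.6) at equal depth, and in 50% and 10.8% without thinning. Of 6 members compared, Sox6 was the 1 that was higher in medial cells (9.39% of all genes were), and Sox1, Sox2, Sox4 and Sox9 were lower (7.33% of all genes). The neuronal genes Stmn2 and Gap43 also differed, at 2425 and 721 CPM in medial and 1585 and 187 CPM in caudal cells. The part of neuronal maturity in the Sox differences was not tested. Of 14 partner genes, 9 were lower in medial cells, among them Pax6, Vim, Fabp7 and Notch1, and 0 were higher.

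Sox2 stood at 129 CPM (108 to 153) in medial interneurons, 0.454 times the caudal level (0.356 to 0.577), and Sox1 at 57.4 (43.9 to 73.8), 0.304 times (0.217 to 0.424). Both were still far above the excitatory layers, Sox2 by 39.6-fold (31.8 to 49.2). Among medial cells at 2000 UMIs, Sox2 was found in 16.3% of cells with Sox6 (6.80 to 30.7) and 27.6% of cells without it (19.7 to 36.7), and these intervals overlap. Without thinning the shares were 49.4% and 47.1%. Dividing inhibitory-lineage cells (36 cells) held 249 CPM of Sox2 (197 to 310), 152 of Sox1 (113 to 201), 62.2 of Sox21 (38.0 to 96.0) and 6.22 of Sox3 (0.753 to 22.5). So Sox3 was low in this lineage at each stage measured.

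**Figure D3:**
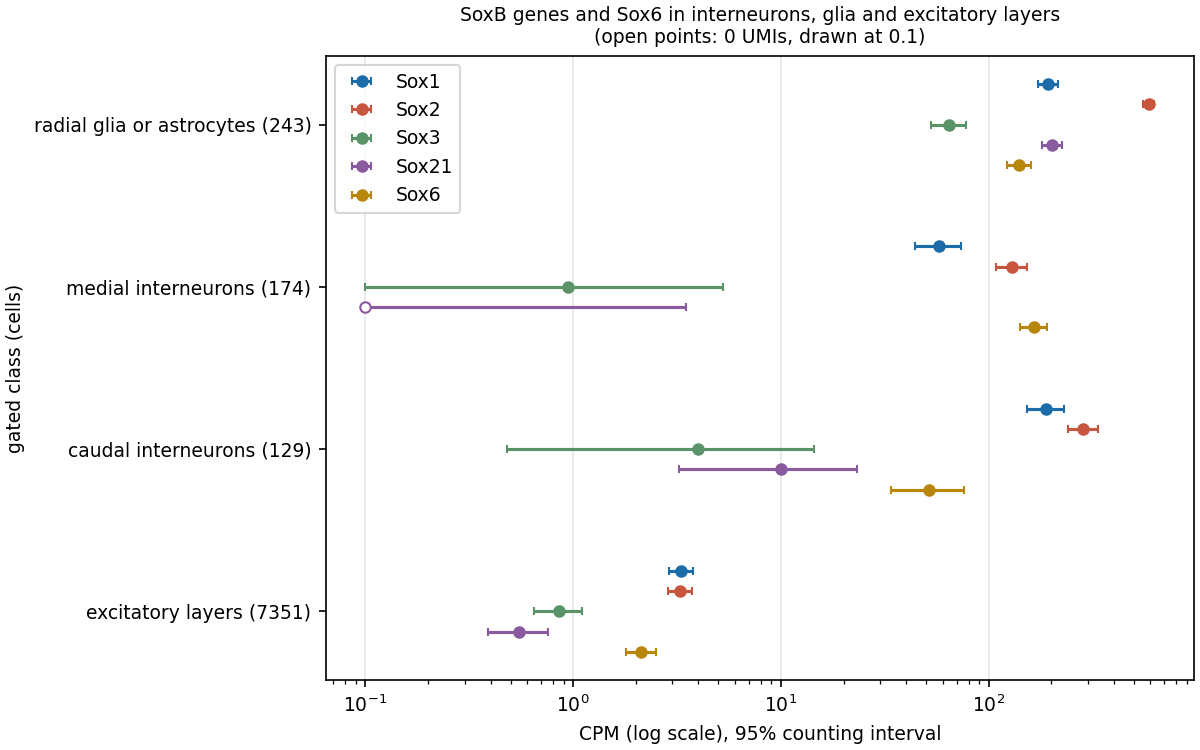
CPM on a log axis of the SoxB genes and Sox6 (points, with 95% counting intervals) in radial glia or astrocytes, medial and caudal interneurons and excitatory layers; an open point marks 0 UMIs. Sox1 and Sox2 in both interneuron classes lie well above excitatory layers, while Sox3 and Sox21 do not exceed 10 CPM there.

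The SoxC genes had the opposite course. Sox11 was highest in newborn excitatory neurons at 5929 CPM (5810 to 6049), with a median of 48 UMIs per cell (quartiles 34.75 and 63). Radial glia or astrocytes held 359 CPM (331 to 390) and excitatory layers 2925 (2912 to 2938). The newborn class was thus 16.5-fold above the glia (15.2 to 18.0) and 2.03-fold above the excitatory layers (1.99 to 2.07). With 1 more marker asked of each gate, the last ratio was 1.67 (1.61 to 1.72), so that Sox11 no longer passed 2-fold. Sox4 stood at 3972 CPM (3875 to 4071) in newborn neurons, 719 (678 to 761) in radial glia or astrocytes and 2999 (2987 to 3012) in excitatory layers. Its newborn to layer ratio was 1.32 (1.29 to 1.36).

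Of 8 members compared between newborn neurons and excitatory layers, 7 were at least 2-fold higher (6.71% of all genes) and 0 were lower (6.26%). Besides Sox11 these were Sox1, Sox2, Sox21, Sox6, Sox8 and Sox9, at 11.9 to 71.1 CPM. These 6 were under 10 CPM in excitatory layers and passed only through the newborn neurons, so their direction was fixed by the minimum, unlike that of Sox4 and Sox11. At 2000 UMIs, 12.8% of newborn neurons (8.40 to 18.5) held Sox2 while 98.9% held Sox11, and 31.9% held Sox2 without thinning. Of 14 partner genes, 8 were higher in newborn neurons, among them Nes and Pou3f2 and also Pax6, Vim, Notch1 and Tead2, which passed only through newborn neurons, and 0 were lower.

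Within the layer II/III gate both SoxC genes were higher with Igfbpl1, a gene of young migrating neurons. Sox11 stood at 4139 CPM (4110 to 4168) in 2425 cells with at least 4 Igfbpl1 UMIs, at 2355 (2313 to 2398) in 556 cells with fewer and at 1973 (1920 to 2026) in 301 cells with 0. The ratio of the first to the last was 2.10 (2.04 to 2.16) for Sox11 and 1.68 (1.64 to 1.73) for Sox4, and 2.02 for Sox11 at equal depth. Beside this, 1.88% of all genes were at least 2-fold higher and 3.96% lower in young cells, and Sox11 was the 1 of 2 members compared that passed. Stmn2 moved the other way, from 1782 to 3656 CPM. The young cells had a median of 7398 UMIs and those without Igfbpl1 10032 UMIs, so the cells without Igfbpl1 were the deeper ones. Gucy1a3, Nwd2 and Mast4 were among the leading genes of the cells without Igfbpl1 and also of the unresolved excitatory neurons. Whether the cells with and without Igfbpl1 differ in neuron type as well as in age was not tested. Of 11 partner genes, 5 were higher in young cells, among them Pou3f2 and Pou3f3, and 0 were lower.

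Across the layers, Sox4 ran from 3997 CPM (3968 to 4026) in young layer II/III to 705 (653 to 761) in layer VIb, and Sox11 from 4139 to 1540 (1462 to 1621). Layer IV held 2827 CPM of Sox4 and 2042 of Sox11, layer V 2581 and 2013, and layer VI 2543 and 2703. Upper over deep layers gave 1.38 (1.37 to 1.39) for Sox4 and 1.24 (1.23 to 1.26) for Sox11. For Sox11 this order held only with the young cells: the other upper-layer classes stood at 1973 to 2355 CPM, below the 2552 CPM (2530 to 2573) of the deep layers. That deep value came mostly from layer VI, with 46244 of 53816 UMIs. Layer V, at 2013 CPM, lay within the range of the other upper-layer classes, and layer VIb, at 1540, below it. Neither passed 2-fold, beside 1.77% of all genes higher and 3.16% lower. Layer VIb, the remnant of the subplate that is among the first neurons born, and Cajal-Retzius cells, also early born, were the lowest neurons, the latter at 734 CPM of Sox4 (671 to 802) and 714 of Sox11 (652 to 780). In both classes Sox4 was close to its radial glia level. These classes had 50 and 42 cells, and both were uneven. Layer VIb cells held a median of 5 Sox4 UMIs (quartiles 2 and 22) and up to 77, and Cajal-Retzius cells a median of 3 Sox11 UMIs (quartiles 1.25 and 21.5) and up to 51. Of 11 partner genes, Pou3f2 and Pou3f3 were at least 2-fold higher in upper layers and Nfia was lower.

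The balance of the pair also differed between classes. For each Sox4 UMI there were 1.49 Sox11 UMIs (1.45 to 1.54) in newborn excitatory neurons, 1.04 (1.02 to 1.05) in young layer II/III, 0.722 (0.709 to 0.736) in layer IV, 1.06 (1.05 to 1.08) in layer VI and 2.18 (1.99 to 2.40) in layer VIb. Glia held fewer, at 0.50 (0.452 to 0.553) in radial glia or astrocytes and 0.407 (0.370 to 0.449) in OPC. Medial interneurons stood at 1.58 (1.49 to 1.68) and caudal ones at 0.900 (0.846 to 0.958). Caudal interneurons had the highest Sox4 level of the 18 classes, 4260 CPM (4082 to 4445), and medial ones a low one, 1633 (1557 to 1711), while Sox11 differed less, 3835 (3666 to 4010) against 2581 (2485 to 2679).

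**Figure D4:**
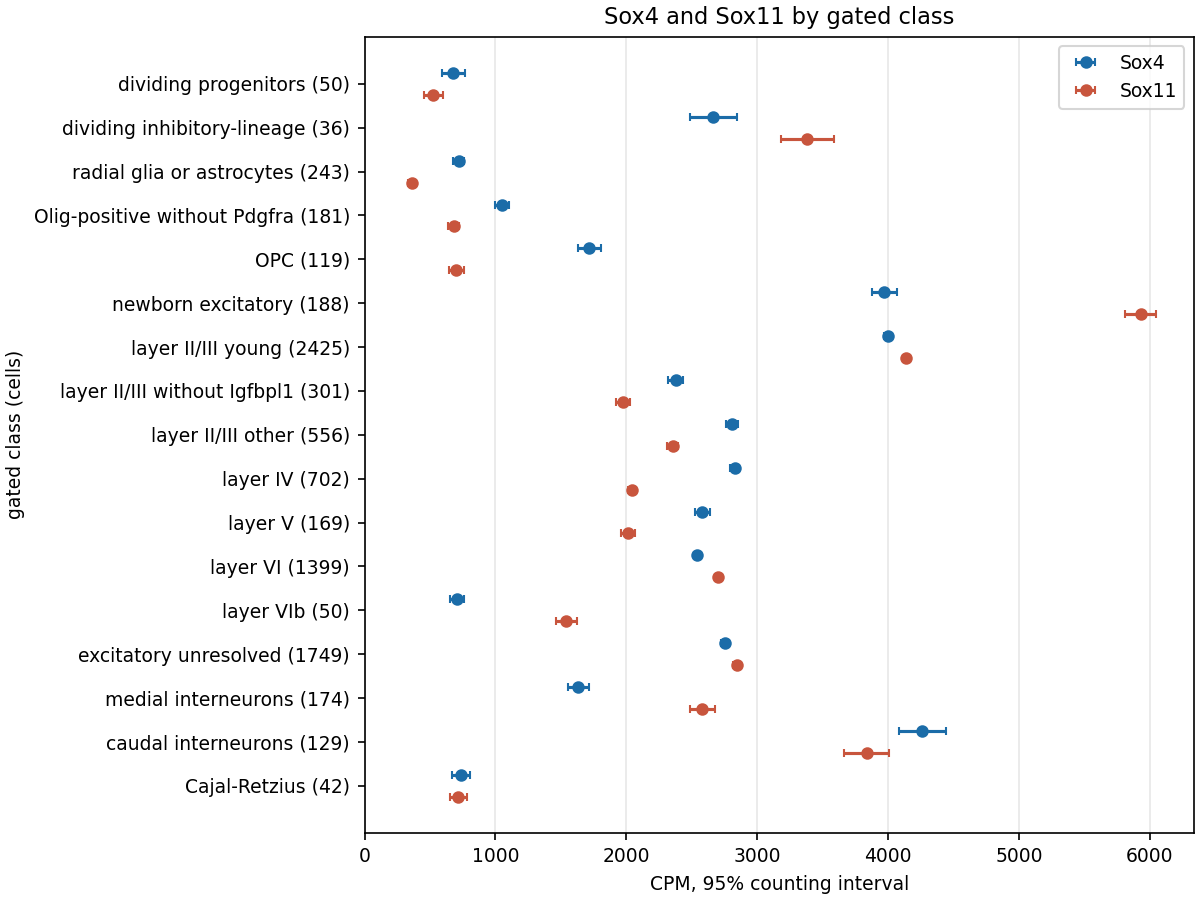
CPM of Sox4 and Sox11 (points, with 95% counting intervals) in 17 gated classes, all those of at least 30 cells other than unresolved inhibitory neurons. Sox11 peaks at 5929 CPM in newborn excitatory neurons, and Sox4 is lowest in dividing progenitors (676 CPM), layer VIb (705 CPM) and radial glia or astrocytes (719 CPM), and Sox11 in radial glia or astrocytes (359 CPM) and dividing progenitors (525 CPM).

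**Figure D5:**
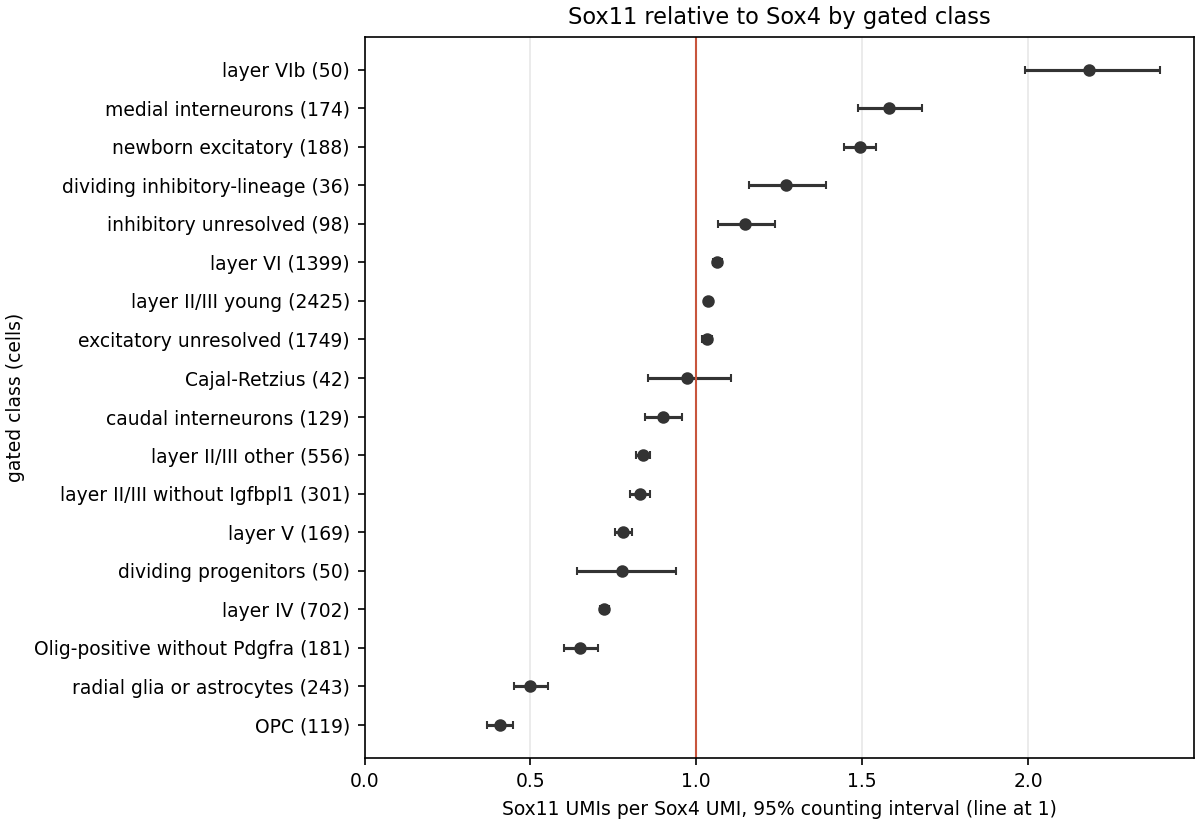
Sox11 UMIs per Sox4 UMI (points, with 95% counting intervals) in the 18 classes of at least 30 cells, with a line at 1. OPC and radial glia or astrocytes lie lowest, at 0.407 and 0.50, and layer VIb highest, at 2.18.

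SoxC transcripts in glia were set beside those of neuronal genes. Relative to excitatory layers, Stmn2 stood at 0.0364 (0.0312 to 0.0423) in radial glia or astrocytes and Gap43, another neuronal gene, at 0.0892 (0.0765 to 0.103), while Sox11 stood at 0.123 (0.113 to 0.133) and Sox4 at 0.240 (0.226 to 0.254). In endothelial cells (15 cells) the values were 0.0197 (0.00944 to 0.0362) for Stmn2, 0.0450 (0.0285 to 0.0676) for Sox11 and 0.178 (0.143 to 0.218) for Sox4. Sox4 thus stood above both neuronal genes in each class, since Gap43 was at 0.0282 (0.0104 to 0.0614) in endothelial cells, and Sox11 stood above them in the glia. The part of neuronal RNA in these levels was not tested. Newborn excitatory neurons held 853 CPM of Stmn2 against 2910 in excitatory layers, but more Sox4 and Sox11, so the comparison does not settle the source. OPC held more Sox4 than the other glia, 1716 CPM (1629 to 1807), 2.39 times the radial glia level (2.21 to 2.58).

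Since Sox4 and Sox11 moved together (r = 0.87 over the 18 classes), their promoter windows are shown in the same way, both on the minus strand of GRCm38.p6 (RefSeq). Sox4 lies at chr13:28953700-28953949 and Sox11 at chr12:27342719-27342968.
Sox4: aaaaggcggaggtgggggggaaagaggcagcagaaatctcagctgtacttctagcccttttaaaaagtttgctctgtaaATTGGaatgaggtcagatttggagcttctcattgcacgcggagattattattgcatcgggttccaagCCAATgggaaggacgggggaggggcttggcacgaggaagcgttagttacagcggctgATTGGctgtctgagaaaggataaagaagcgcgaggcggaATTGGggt
Sox11: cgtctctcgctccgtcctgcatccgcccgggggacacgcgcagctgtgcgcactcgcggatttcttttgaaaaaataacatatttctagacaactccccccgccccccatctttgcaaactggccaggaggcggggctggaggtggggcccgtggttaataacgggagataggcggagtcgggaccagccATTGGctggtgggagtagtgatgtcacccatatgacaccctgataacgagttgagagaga
CCAAT boxes were found 4 times in the Sox4 window, at 171, 104, 47 and 8 bases before the start, and 1 time in that of Sox11, at 60 bases. The octamer core, the Sox core and the TATA box were absent from both. The G and C content was 50.8% for Sox4 and 58% for Sox11, below that of Sox1 and Sox2. Other pairs of members had a higher r. Among them, Sox21 and Sox8 (r = 0.97) had windows, not shown, with no match to any of the 4 motifs.

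Patterns most like that of a member were named by the Pearson r of log2(CPM + 5) over the 18 classes, among 12888 genes that were neither markers nor members. For Sox4 the nearest was Gm26735 (r = 0.99), a noncoding gene that overlaps Sox4 on the opposite strand for 2753 bases in GENCODE M21. It stood at 88.9 CPM in radial glia or astrocytes, 530 in newborn excitatory neurons and 682 in caudal interneurons. Reads of Sox4 and Gm26735 cannot be told apart without knowing whether strand was used in counting. For Sox11 the nearest were Mex3b (r = 0.97), an RNA-binding protein, Cirbp (0.96) and Mex3a (0.95). Celf1 and Mex3a followed Gm26735 for Sox4 (0.91 each).

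Sox9 was nearest to Gnai2, Vim and Litaf (r of 0.98 to 0.99). Sox3 was nearest to Bcan (0.99), a proteoglycan of the glial matrix, Zcchc24 and S100a13 (0.98 each), and Sox21, after Notch1, to Ctdsp1 (0.99) and Jam2 (0.98). Sox2 was nearest to 2810025M15Rik, Gm7265 and Meis1 (0.96 each). Sox1 was nearest to Gm5607, Kat2b and Ccnd2 (0.96 each), the last a cyclin counted at 1004 CPM in radial glia or astrocytes and 1683 CPM in caudal interneurons. Sox6 had looser neighbours, Stat5b (0.93) and Npas3 (0.92). Sox8 was nearest to Gm4675, Metrn and Fam96a (0.97 each) and Sox10 to S100a3 (0.98), Gpr17 (0.97) and AC140285.1 (0.96). These are descriptions of 18 points of the same library, with no test.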

How the data were processed

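The authors deposited raw UMI counts per gene and cell barcode for 1 WT library of the P0 cortex, with a table of each cell's total, which equalled the sum of its counts in 11062 cells. Per the submitters' processing notes, STAR, Cell Ranger 2, Seurat and mm9 were used; per the methods the barcode and matrix files came from Cell Ranger and were then analysed in Seurat. The role of mm9, the annotation and the strand setting are not given in the sources used here. Promoter coordinates (GRCm38.p6) and gene overlaps (GENCODE M21) are from a later build than mm9 and were used for sequences and for which genes overlap, never to place reads. Cells with at least 200 genes were gated by UMIs of lineage markers (4 cells had fewer). Counts were summed per class, and ratios of summed CPM carry exact conditional binomial intervals, levels exact Poisson and shares exact binomial (Clopper-Pearson) intervals, at 95%. No doublet caller was run; cells with gates of unlike lineages were left out. A bound against 0 UMIs uses 3 counts for the class. The 2-fold comparison used genes of at least 10 CPM in either class, with 5 CPM added. As there was 1 library, there were no tests, and p-values are not given. Of 23 classes, those with 30 cells or more entered patterns over classes. The rule for named genes took the 10 members, other Sox genes above 10 CPM, 20 partners or targets and the 3 genes most alike to each member. For Sox6, 1 of these is not reported here. The members and lists were chosen with earlier results of these data known. Promoters of 7 members are in the RefSeq table used, and those of Sox3, Sox9 and Sox10 were not used here. The comparison script was tested on simulated data. Python 3.11.15, numpy 2.4.6, scipy 1.17.1 and pandas 2.3.3 were used. Alternatives were the gates with 1 marker more or fewer, thinning to 2000 UMIs, equal weight per cell, no filter on low values, 1 CPM added, mitochondrial genes in the total, at least 1000 genes per cell, and the 5% deepest cells of each class left out.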

Additional observations from a re-analysis of the deposited data

How the results depend on the processing

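Each of 12 ratios was recomputed under 7 alternatives, 83 values in all, since the mean over cells gave no value for Sox10, which had 0 UMIs in radial glia or astrocytes. All 83 lay on the same side of 1 as the value reported, and 67 lay inside its counting interval. The cause of the other 16 was not tested. The alternatives reuse the same cells and many ratios were large, so little is read from the side of 1. Changing the gates also changed which cells counted as mixed. Radial glia or astrocytes numbered 269 with 1 more marker and 129 with 1 fewer, against 243. The mean over cells of the CPM per cell gave 111.7 for Sox2, 107.3 for Sox9 and 249.3 for Sox21 in radial glia or astrocytes over excitatory layers, 25.6 for Sox1 in dividing progenitors over excitatory layers and 53.24 for Sox2 in caudal interneurons over excitatory layers. Thinning each cell to 2000 UMIs gave 107.7 for Sox9 and 229.1 for Sox21 in the same glial ratio, at least 47.42 for Sox10 in OPC, 5.231 for Sox6 in medial over caudal interneurons, 1.22 for Sox4 in newborn neurons over excitatory layers and 2.018 for Sox11 in young layer II/III. With 1 more marker per gate the newborn to layer ratio was 1.27 for Sox4 and 1.665 for Sox11, with 1 fewer it was 1.37 and 2.198, and without the 5% deepest cells it was 2.107 for Sox11. The counts of members past 2-fold stayed within 1.5 times under 48 alternatives, although 1 more marker per gate added Sox11 to the genes higher in OPC and, in newborn neurons, exchanged Sox11 for Sox3. With no filter on low values, Sox10 was added in dividing progenitors, Sox3 in newborn neurons, Sox21 and Sox8 in caudal interneurons (6 members in place of 4) and Sox21 among the genes lower in medial interneurons, and adding 1 CPM in place of 5 changed no member.

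No paired analysis was possible because only 1 sample was analysed, and leaving out a replicate was not possible either. Spread between animals is unknown, and the intervals of levels and ratios leave out spread between cells as well, so these intervals understate the error of every level. Small classes, such as dividing progenitors, layer VIb and Cajal-Retzius cells, and genes with few UMIs, such as Sox3 in interneurons, have wide intervals. Cells left out for mixed gates hold SoxB1 and SoxE UMIs, and those that met an excitatory and a glial gate are missing from the excitatory layers by construction.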

Other observations

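The table listed 9 further Sox genes. Sox5, a SoxD gene like Sox6 and a regulator of deep-layer neurons, had another pattern: it stood at 672.5 CPM (660 to 685) in layer VI, 373 (352 to 395) in layer V, 237 (207 to 270) in layer VIb and 52.8 (49.5 to 56.2) in young layer II/III. Upper over deep layers gave a ratio of 0.119 (0.114 to 0.124) for Sox5, against 2.19 (1.38 to 3.59) for Sox6, which did not exceed 3.22 CPM in any resolved layer. Medial interneurons held 25.4 CPM of Sox5 (16.8 to 37.0) beside 165 of Sox6. Sox12, the remaining SoxC gene, was far rarer than Sox4 and Sox11 and varied less, from 61.3 CPM (49.9 to 74.6) in radial glia or astrocytes to 158.5 (153 to 164) in layer VI among classes of at least 30 cells.

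Endothelial cells held the SoxF genes that are known for vessels, Sox17 at 286 CPM (212 to 378), Sox18 at 172 (116 to 245) and Sox7 at 74.4 (39.6 to 127), although the class had 15 cells. Excitatory layers held 0.043 CPM of Sox17 and 0.418 of Sox18. Sox13 stood at 40.1 CPM (16.1 to 82.6) in endothelial cells and 23.9 in dividing progenitors. Sox14, Sox15 and Sox30 did not exceed 10 CPM in any class. The 12 cells of the striatal-type inhibitory class held 28 Sox9 UMIs in 7 cells, 230 CPM (153 to 332), and 2 Sox2 UMIs.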
